A study of Mus musculus with 20 samples.

Results

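The genes described here encode the parts that carry a signal from a receptor in the cell membrane to cyclic AMP and the other intracellular messengers: G protein alpha, beta and gamma subunits, the regulators of G protein signalling (RGS proteins), and the adenylyl cyclases. Members were chosen by symbol alone, as rows for Gnai1 to Gnai3, Gnao1, Gnaq, Gnas, Gnal, Gnaz, Gna11 to Gna15, Gnb1, Gnb2, Gnb4, Gnb5, and every Gng, Rgs or Adcy symbol that continues with a digit. The rule found 60 of the 23129 rows of the count table, namely 13 alpha, 4 beta and 10 gamma subunits, 23 RGS or RGS-binding genes and 10 cyclases. They were measured in AgRP neurons, hypothalamic neurons that release agouti-related peptide and neuropeptide Y and promote feeding.

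The study asked how these neurons respond to fasting and whether that response needs Phf6, which lies on the X chromosome and encodes a protein that associates with chromatin. Conditional knockout mice (cKO; Phf6 flox/y; AgRP-Cre/+; Ai9/+) were set against littermates that lacked the floxed allele and carried the same Cre driver and tdTomato reporter (WT; AgRP-Cre/+; Ai9/+). All mice were C57BL/6 and 25 to 30 days old. Fasted mice had water but no food from 5 pm on the day before collection, and fed mice had food. The groups were fasted cKO, fed cKO, fasted WT and fed WT, with 5 libraries each. The deletion is limited to cells in which the AgRP-Cre driver has acted, and tdTomato marks those cells in both genotypes. Each library was made from 1000 sorted tdTomato+ cells, and no source used here says whether cells of several mice were pooled. P-values therefore measure the spread between these samples, which may be technical. In bulk samples of this kind, fewer cells of a type and less RNA per cell cannot be told apart.

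A G protein alpha subunit binds GTP when a receptor is activated and separates from its beta-gamma partner, after which both parts act on effectors. Gs and Golf alpha subunits stimulate adenylyl cyclase, Gi-type subunits inhibit it, and Gq-type subunits activate phospholipase C. RGS proteins end the signal by speeding GTP hydrolysis on the alpha subunit. In AgRP neurons, cyclic AMP and protein kinase A are known to increase firing and feeding, and Gi-coupled receptors to reduce firing.

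Total counts ran from 8542250 to 9282818 in fasted cKO, from 10604977 to 13573524 in fed cKO, from 8494499 to 10000278 in fasted WT and from 11500753 to 13060922 in fed WT, so fasted libraries were shallower than fed libraries. Phf6 itself had 53.6 to 71.3 CPM in fasted cKO, 65.0 to 76.3 in fed cKO, 116 to 143 in fasted WT and 264 to 292 in fed WT. CPM is each count scaled to the library's total with TMM normalization. The labels and the targeted gene went the same way in every library, and no source used here names the exons removed from Phf6. Summed markers of AgRP neurons were at 50800 to 69200 CPM in fasted cKO, 26700 to 31300 in fed cKO, 59500 to 84800 in fasted WT and 20700 to 22800 in fed WT, with none of the 8 at 0. Astrocyte markers summed to 185 to 239 CPM in fasted cKO, 235 to 261 in fed cKO, 196 to 227 in fasted WT and 199 to 295 in fed WT. Tanycyte and ependymal markers summed to 152 to 245 CPM in fasted cKO, 185 to 218 in fed cKO, 110 to 197 in fasted WT and 118 to 201 in fed WT. Aqp4 of the 8 astrocyte markers and Ccdc153 of the 6 tanycyte and ependymal markers were at 0 in fed cKO. Microglial and oligodendrocyte precursor markers summed to at most 1.84 and 1.52 CPM in any library. Oligodendrocyte markers summed to 49.4 to 65.5 CPM in fasted cKO, 82.6 to 102 in fed cKO, 49.1 to 73.5 in fasted WT and 90.5 to 103 in fed WT, with none of the 6 at 0. The fasted libraries fell into replicates 1 and 2 and replicates 3 to 5: the mean correlation of the libraries' deviations from their group mean was -0.091 within and -0.35 between these sets in fasted cKO, and 0.043 within and -0.44 between them in fasted WT, against -0.25 for both in each fed group. Summed AgRP neuron markers also differed between these sets. They were 62600 and 69200 CPM in replicates 1 and 2 and 50800 to 54900 in replicates 3 to 5 of fasted cKO. In fasted WT they were 84800 and 84000 CPM, against 59500 to 60900. The labels name no such sets, and fasting or genotype calls of a member that were lost or turned round with either set alone are given with the values of that set.

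Of the 60 members, 46 passed the filter on low counts and were tested. The 14 that did not pass were Gna15, Gng8, Gng11, Gng13, Rgs1, Rgs5, Rgs13, Rgs18, Rgs21, Rgs9bp, Adcy1, Adcy4, Adcy8 and Adcy10. Rgs1, Rgs13, Rgs18 and Rgs21 had no count in any library, where a count of 0 allows up to 0.207 to 0.387 CPM (3 counts, counting error only). Rgs9bp, which anchors R7-type RGS proteins at membranes, had no count in either fasted group. It had 8 counts in 2 of 5 fed cKO libraries and 21 in 4 of 5 fed WT libraries. Scaled for library size, the exact 95% interval of the fasted to fed ratio ran from 0 to 0.926 in cKO and from 0 to 0.299 in WT, for counting error only. About 51.6% of the exon bases of Gng13 overlap another gene. A gene had to reach 0.971 CPM in 5 libraries, and Rgs6, Rgs8 and Rgs16 did so only through the fed groups, with 1, 0 and 0 of 10 fasted libraries at that level, so these 3 had to differ between fasted and fed.

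**Figure D1:**
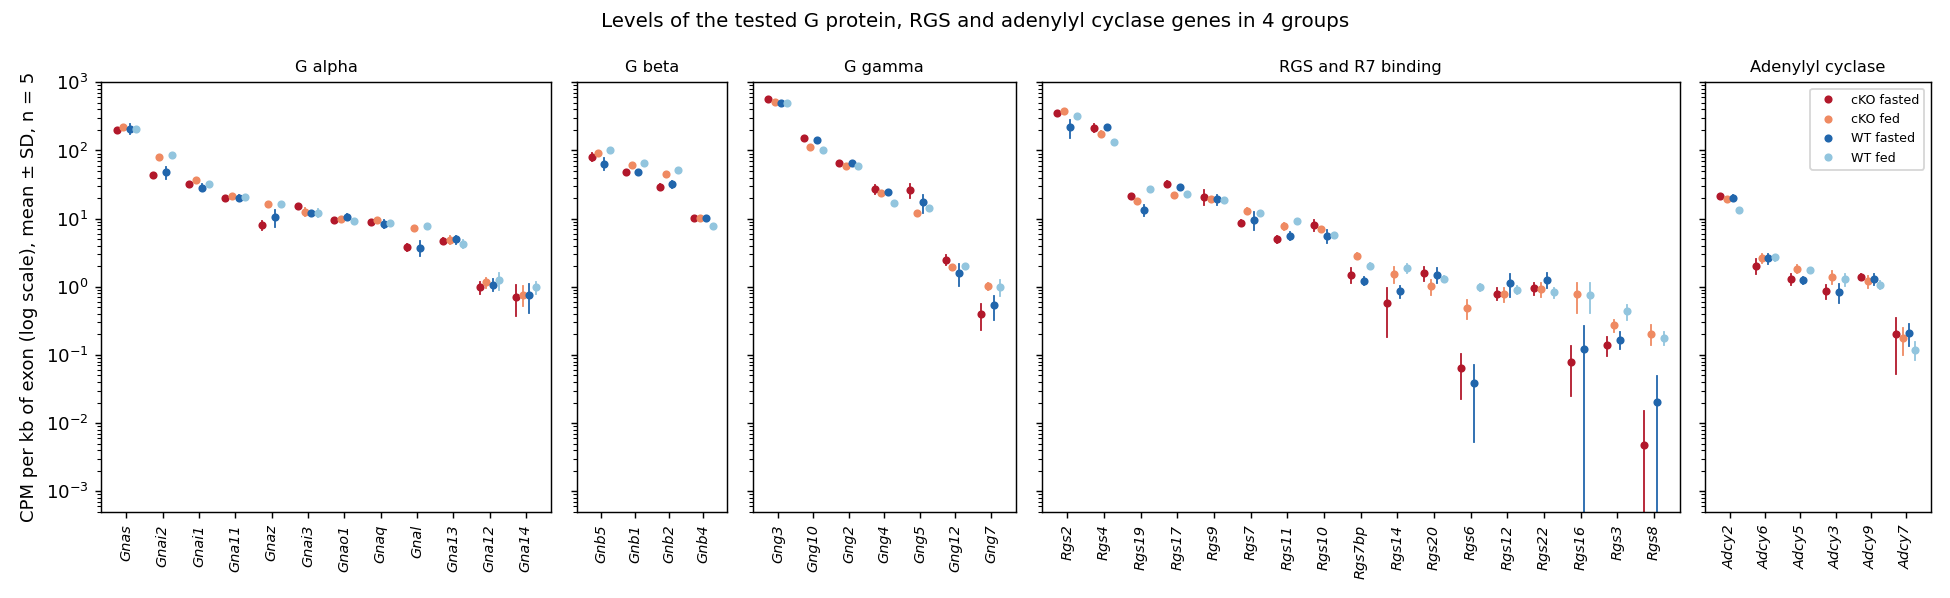
Each point is the mean of 5 libraries in CPM per kilobase of exon (log axis) and each bar the SD, for the 46 tested members in fasted cKO, fed cKO, fasted WT and fed WT, ordered by the fed WT level within each class. Bars that meet the lower edge extend to 0 or below. Gnas, Gnb5, Gng3 and Adcy2 lead their classes in all groups, and Rgs2 leads its class except in fasted WT.

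Levels per kilobase of exon were led by the same gene in all 4 groups for the alpha, beta, gamma and cyclase classes. Among alpha subunits, Gnas, which encodes the Gs subunit that activates adenylyl cyclase, took 57.5% ± 1 of the class in fasted cKO and 51.3% ± 0.574 in fed WT (SD, n = 5 each). Gnai2, a Gi subunit, came second with 12.4% ± 0.489 in fasted cKO and 20.9% ± 0.271 in fed WT. Among beta subunits, Gnb5, the atypical subunit that pairs with R7-type RGS proteins in place of a gamma subunit, took 47.5% ± 2.85 in fasted cKO and 45% ± 2.03 in fed WT. Gnb4 took the smallest share, 6.09% ± 0.65 in fasted cKO and 3.49% ± 0.27 in fed WT. These shares rest on the length of all annotated exons, 12692 bases for Gnb4 and 3402 for Gnb2. In CPM, Gnb4 was above Gnb2 in fasted cKO (130 and 99.8) and fasted WT (128 and 108). It was below Gnb2 in fed cKO (129 and 156) and fed WT (99.8 and 176). In fasted WT, Gnb1 averaged 208 CPM and Gnb5 200. Gng3, a gamma subunit of neurons, held 67.7% ± 1.04 of the gamma class in fasted cKO and 71.8% ± 0.716 in fed WT. Rgs2 and Rgs4, small RGS proteins of the R4 family, headed their class: Rgs2 held 52.5% ± 2.36 in fasted cKO and 57.6% ± 1.84 in fed WT, and Rgs4 held 32.2% ± 3.35 in fasted cKO and 23.7% ± 1.55 in fed WT. In fasted WT the pair did not differ beyond its spread, with 219 ± 65.7 CPM per kilobase for Rgs2 and 221 ± 11.9 for Rgs4. Adcy2, a cyclase that beta-gamma subunits stimulate, held 78.5% ± 2.2 of the cyclase class in fasted cKO and 65.5% ± 2.32 in fed WT. About 22.0% of the exon bases of Gnas, 24.2% of those of Gng3 and 72.0% of those of Gng10 overlap another gene, and the library kit does not mark strand, so their levels may include reads of the neighbour.

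Fasting changed many members in both genotypes. In cKO, 9 of the 46 tested members rose and 18 fell, which is 58.7% of them, against 53.1% of all genes tested (26.0% higher and 27.0% lower). In WT, 9 rose and 19 fell, or 60.9%, the same share as over all genes (60.9%, with 29.6% higher and 31.3% lower). Without replicate 5 of fasted WT, 14 members rose in WT. Over all tested genes, 3776 to 3881 rose in WT when 1 library was left out, against 3920 in the reported fit. The falls include Rgs6, Rgs8 and Rgs16, which had to differ. Over the other 43 members, 9 rose and 15 fell in cKO, or 55.8%, and 9 rose and 16 fell in WT, or 58.1%. Counted the same way, with genes below that level in either feeding state left out, the shares of all genes were 54.6% in cKO and 62.1% in WT. The median log2 fold change of these 43 members was -0.09 in cKO and -0.05 in WT, against -0.02 and -0.03 over all such genes. The words rose and fell stand for a Benjamini-Hochberg adjusted p under 0.05 in edgeR's quasi-likelihood test. Of the 43, 5 rose in both genotypes, 13 fell in both, 0 were called in opposite directions, and 12 were called in neither. Over the 12175 genes counted the same way, 20.6% rose in both, 20.8% fell in both, 1.25% were called in opposite directions and 25.9% were called in neither, against 11.6%, 30.2%, 0% and 27.9% of the 43 members. The 5 that rose in both were Gng2, Gng10, Rgs4, Rgs17 and Adcy2. These fasting changes moved together with the depth of the libraries, with the oligodendrocyte markers given above and, in WT, with summed endothelial markers of 4.91 to 8.72 CPM in fasted and 0.345 to 2.49 CPM in fed libraries, with Kdr at 0 in both groups among the 6. Summed Pomc neuron markers also moved with fasting in cKO, at 440 to 1100 CPM in fasted and 314 to 419 in fed libraries, with 2 of 3 called higher. The part of these in the changes was not tested.

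**Figure D2:**
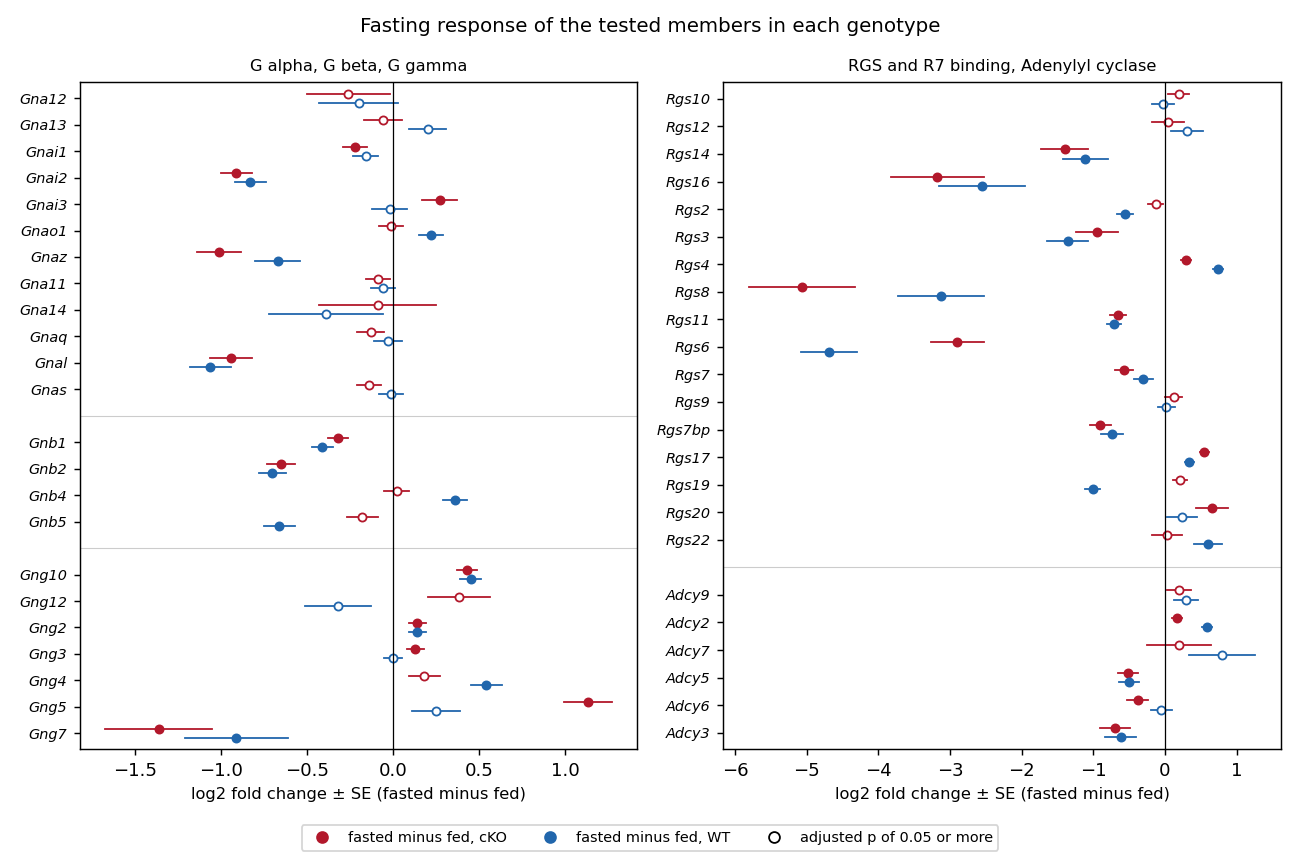
Log2 fold change ± SE of the 46 tested members, fasted minus fed, in cKO (red, upper point of each pair) and WT (blue, lower point). Filled points passed an adjusted p under 0.05 and open points did not. Rgs19, Gnb5 and Gng5 are among the members whose pairs lie apart.

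Among the alpha subunits that act on cyclase, the inhibitory Gnai2 and Gnaz and the stimulatory Gnal fell with fasting, while Gnas was not called. Gnai2 had 163, 149, 153, 175 and 173 CPM in fasted cKO (replicates 1 to 5 here and below), against 327, 303, 295, 292 and 307 in fed cKO. In WT it had 152, 136, 180, 216 and 223 CPM in fasted libraries, against 325, 331, 315, 319 and 324 in fed libraries. No fasted library reached any fed library. The log2 fold change was -0.91 ± 0.09 in cKO (SE, edgeR adjusted p = 2.1e-09) and -0.83 ± 0.09 in WT (edgeR adjusted p = 5.56e-09). Gnal, which encodes the Gs-type subunit Golf, averaged 42.6 CPM in fasted cKO and 81.8 in fed cKO (-0.94 ± 0.12, edgeR adjusted p = 1.03e-07), and 41.8 in fasted WT and 87.0 in fed WT (-1.06 ± 0.12, edgeR adjusted p = 7.61e-09). Its fasted and fed libraries did not overlap in either genotype. Gnaz, a Gi-family subunit found mainly in neurons, fell by 1.01 ± 0.13 on the log2 scale in cKO and by 0.67 ± 0.13 in WT (edgeR adjusted p = 1.68e-07 and 4.3e-05), to means of 29.3 CPM in fasted cKO, against 59.2 in fed cKO, and 37.4 in fasted WT, against 59.7 in fed WT. The WT falls of all 3 genes were larger with fasted replicates 1 and 2 than with replicates 3 to 5. They were -1.18 ± 0.06 and -0.64 ± 0.06 for Gnai2, -1.52 ± 0.10 and -0.82 ± 0.08 for Gnal, and -1.17 ± 0.11 and -0.42 ± 0.08 for Gnaz.

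Gnas averaged 2233 CPM in fasted cKO, 2456 in fed cKO, 2335 in fasted WT and 2347 in fed WT, and its fasting change was -0.14 ± 0.07 in cKO and -0.01 ± 0.07 in WT (edgeR adjusted p = 0.0926 and 0.932). Its fasted WT libraries were 1929, 1961, 2531, 2646 and 2607 CPM, so replicates 1 and 2 lay below every fed WT library (2291 to 2391) and replicates 3 to 5 above them. With replicates 1 and 2 as the only fasted libraries the WT change was -0.29 ± 0.04, and with replicates 3 to 5 it was 0.15 ± 0.03 (edgeR adjusted p = 3.92e-08 and 0.000399). The cKO change was -0.21 ± 0.04 and -0.08 ± 0.04 with the same sets (edgeR adjusted p = 8.99e-06 and 0.0438). Gnai1, another inhibitory subunit, fell in cKO (-0.22 ± 0.07, edgeR adjusted p = 0.00929), and Gnai3 rose there (0.27 ± 0.10, edgeR adjusted p = 0.0197) with overlapping libraries. The Gnai3 rise was 0.08 ± 0.10 once GC content and gene length were modelled (edgeR adjusted p = 0.506), and it was not called without replicate 1 of fasted cKO or replicate 2 of fed cKO (edgeR adjusted p = 0.0574 and 0.0823). Gnao1, the abundant Go subunit of neurons, rose in WT (0.22 ± 0.07, edgeR adjusted p = 0.00449), but not with replicates 1 and 2 as the only fasted libraries (0.07 ± 0.07, edgeR adjusted p = 0.408). The Gq-type Gnaq, Gna11 and Gna14 and the G12-type Gna12 and Gna13 were called in neither genotype, with log2 fold changes between -0.39 and 0.20. About 13.3% of the exon bases of Gna12 overlap another gene.

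Among the beta subunits, which form a lasting dimer with a gamma subunit, Gnb1 and Gnb2 fell in both genotypes. Gnb1 fell by 0.32 ± 0.06 on the log2 scale in cKO and by 0.41 ± 0.06 in WT (edgeR adjusted p = 0.000107 and 2.55e-06). Gnb2 fell by 0.65 ± 0.08 in cKO and by 0.70 ± 0.08 in WT (edgeR adjusted p = 9.31e-08 and 1.11e-08). No fasted library of either gene overlapped its fed group. Gnb4 and Gnb5 were called in WT and not in cKO, and they are taken up with the interaction below. Among gamma subunits, Gng7, a partner of Golf in the striatum, fell to 1.5 CPM in fasted cKO, against 3.84 in fed cKO, and to 2.02 in fasted WT, against 3.78 in fed WT (edgeR adjusted p = 0.000489 in cKO and 0.00954 in WT). The WT fall of Gng7 was -0.50 ± 0.35 with replicates 1 and 2 as the only fasted libraries (edgeR adjusted p = 0.229). Gng10 averaged 198 CPM in fasted cKO, against 147 in fed cKO (0.43 ± 0.06), and 185 in fasted WT, against 135 in fed WT (0.45 ± 0.06; edgeR adjusted p = 1.7e-06 and 4.92e-07). With GC content and gene length modelled, Gng10 changed by 0.05 ± 0.06 in cKO and by -0.02 ± 0.06 in WT (edgeR adjusted p = 0.566 and 0.791). Gng2 rose by 0.14 ± 0.05 in each genotype and was no longer called with that correction (edgeR adjusted p = 0.57 in cKO and 0.082 in WT). About 20.4% of the exon bases of Gng2 overlap another gene. Gng3 averaged 940.4 CPM in fasted cKO and 858 in fed cKO (0.13 ± 0.05, edgeR adjusted p = 0.0233), or 0.04 ± 0.05 with that correction (edgeR adjusted p = 0.469), and its call was lost without replicate 2 of fasted cKO or of fed cKO (edgeR adjusted p = 0.0697 and 0.0611).

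The R7 family of RGS proteins, Rgs6, Rgs7, Rgs9 and Rgs11, works as a complex with Gnb5 and with the anchor Rgs7bp, and acts on Gi and Go subunits. Rgs6, which passed the filter only through the fed groups, had 0.125, 0.506, 0.579, 1.25 and 0.716 CPM in fasted cKO, against 6.11, 3.69, 3.01, 5.03 and 6.59 in fed cKO. Fasted WT libraries had 0.818, 0.646, 0.109, 0.225 and 0.110 CPM, against 8.08, 11.1, 10.2, 9.66 and 10.1 in fed WT libraries. The groups were far apart, and fasted libraries rested on few reads, 27 counts in fasted cKO and 16 in fasted WT over 5 libraries each. Scaled for library size, the ratio of these counts to those of the fed group was 0.134 in cKO (exact 95% interval 0.0868 to 0.198) and 0.0375 in WT (0.0213 to 0.0614), intervals that cover counting error only. Rgs11 fell by 0.65 ± 0.11 on the log2 scale in cKO and by 0.71 ± 0.10 in WT (edgeR adjusted p = 7.33e-06 and 1.17e-06). Rgs7bp fell by 0.90 ± 0.15 in cKO and by 0.74 ± 0.15 in WT (edgeR adjusted p = 6.97e-06 and 0.000113), and all fasted libraries of Rgs11 and Rgs7bp lay below their fed groups. Rgs7 fell in cKO (-0.57 ± 0.13, edgeR adjusted p = 0.000499), while the WT change of -0.30 ± 0.13 (edgeR adjusted p = 0.0446) was -0.03 ± 0.08 with replicates 3 to 5 as the only fasted libraries (edgeR adjusted p = 0.75). The WT call of Rgs7 was also lost without replicate 1 or 2 of fasted WT or 1, 3 or 5 of fed WT (edgeR adjusted p between 0.0624 and 0.167). Rgs9, the form known from striatal neurons, was called in neither genotype (0.12 ± 0.12 in cKO and 0.02 ± 0.12 in WT, edgeR adjusted p = 0.412 and 0.875). With replicates 1 and 2 as the only fasted libraries it was called higher (0.46 ± 0.07 in cKO and 0.25 ± 0.07 in WT, edgeR adjusted p = 1.63e-06 and 0.00386). With replicates 3 to 5 it was called lower (-0.16 ± 0.07 in each, edgeR adjusted p = 0.0474 in cKO and 0.0342 in WT). Its replicates 1 and 2 stood above replicates 3 to 5, at 158 and 179 CPM, against 107 to 116, in fasted cKO and at 139 and 151 CPM, against 99.3 to 115, in fasted WT.

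Several RGS genes of other families fell too. Rgs14, an R12-family protein that also binds inactive Gi subunits, fell to 2.44 CPM in fasted cKO, against 6.53 in fed cKO, and to 3.66 in fasted WT, against 7.90 in fed WT (-1.40 ± 0.33 and -1.11 ± 0.31, edgeR adjusted p = 0.00065 in cKO and 0.00281 in WT). The cKO fall was -3.22 ± 0.42 with fasted replicates 1 and 2 and -0.85 ± 0.24 with replicates 3 to 5. The interaction of Rgs14, -0.29 over all libraries (edgeR adjusted p = 0.701), was -2.23 ± 0.54 and 0.35 ± 0.34 with these sets (edgeR adjusted p = 0.00399 and 0.484). Rgs3, an R4-family protein, fell by 0.95 ± 0.29 on the log2 scale in cKO and by 1.36 ± 0.28 in WT (edgeR adjusted p = 0.00765 and 0.000127). The cKO fall of Rgs3 was -0.73 ± 0.38 with replicates 1 and 2 as the only fasted libraries (edgeR adjusted p = 0.106). Of the other two members that passed the filter only through the fed groups, Rgs8 had 2 counts in fasted cKO and 132 in fed cKO, a ratio of 0.024 after scaling for library size (exact 95% interval 0.00287 to 0.0883), and 8 in fasted WT and 116 in fed WT, a ratio of 0.107 (0.0453 to 0.219). Rgs16 had 8 counts in fasted cKO and 123 in fed cKO, a ratio of 0.103 (0.0434 to 0.209), and 13 in fasted WT and 122 in fed WT, a ratio of 0.166 (0.0859 to 0.295). About 10.1% of the exon bases of Rgs16 overlap another gene.

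Rgs17, of the RZ family that prefers Gz and other Gi-type subunits, went the other way. It had 288, 302, 264, 239.8 and 257 CPM in fasted cKO, against 172, 189, 189.5, 179.8 and 189 in fed cKO. In WT it had 262, 245, 221, 233 and 239.9 CPM in fasted libraries, against 190.1, 186, 175, 193 and 207 in fed libraries. Every fasted library was above every fed library of its genotype (0.55 ± 0.06 in cKO and 0.34 ± 0.06 in WT, edgeR adjusted p = 2.25e-08 and 3.57e-05). Rgs20, of the same family, rose in cKO (0.66 ± 0.22, edgeR adjusted p = 0.0119) with overlapping libraries, and its WT change was 0.24 ± 0.21 (edgeR adjusted p = 0.345). Rgs22, little studied outside the testis, rose in WT (0.60 ± 0.20, edgeR adjusted p = 0.0123), and without replicate 3 of fasted WT its change was 0.43 ± 0.21 (edgeR adjusted p = 0.0732). With replicates 1 and 2 as the only fasted libraries it was 0.32 ± 0.27 (edgeR adjusted p = 0.317). The R12-family Rgs10 and Rgs12 were called in neither genotype.

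Among the cyclases, Adcy5, which calcium and Gi subunits inhibit, fell to 9.31 CPM in fasted cKO, against 13.3 in fed cKO, and to 9.02 in fasted WT, against 12.8 in fed WT (-0.51 ± 0.14 and -0.50 ± 0.14, edgeR adjusted p = 0.00289 in cKO and 0.00271 in WT). Adcy3, known from olfactory neurons and neuronal primary cilia, fell by 0.70 ± 0.21 on the log2 scale in cKO and by 0.62 ± 0.21 in WT (edgeR adjusted p = 0.00673 and 0.0138). With GC content and gene length modelled, the change of Adcy5 was -0.16 ± 0.14 in cKO and -0.14 ± 0.14 in WT, and that of Adcy3 was -0.42 ± 0.21 in cKO and -0.36 ± 0.21 in WT, none of them past the threshold (edgeR adjusted p between 0.102 and 0.39). The WT fall of Adcy3 was -0.34 ± 0.26 with replicates 1 and 2 as the only fasted libraries (edgeR adjusted p = 0.277). About 22.1% of the exon bases of Adcy3 overlap another gene. Adcy6, the close relative of Adcy5, fell in cKO by a narrow margin (-0.38 ± 0.15, edgeR adjusted p = 0.0377), and the change was -0.07 ± 0.16 with replicates 1 and 2 as the only fasted libraries and -0.13 ± 0.15 with GC content and gene length modelled (edgeR adjusted p = 0.746 and 0.486). Leaving out replicate 3, 4 or 5 of fasted cKO or 1, 2 or 3 of fed cKO also ended that call (edgeR adjusted p between 0.053 and 0.14). Adcy9 and Adcy7 were not called in either genotype.

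The question of the design is whether the fasting response depends on Phf6, which the interaction of genotype with fasting tests directly. It was past the threshold for 7 of the 46 members, 4 with a more positive and 3 with a more negative fasting change in cKO, or 15.2%, against 17.3% of all tested genes (8.87% and 8.44%). The 7 were Rgs19, Rgs6, Gng5 and Gnb5, with more positive changes in cKO, and Rgs4, Adcy2 and Gnb4, with more negative changes. The sets of fasted libraries moved these counts: with replicates 3 to 5 as the only fasted libraries 7 and 9 members were called, and with replicates 1 and 2 the lower count was 5. Without replicate 1 of fasted WT the counts were 7 and 5, and without replicate 2 of fasted WT the lower count was 5. Calls over all tested genes moved too, and they rose with replicates 3 to 5, as given with the processing below. Leaving out 1 library gave 1003 to 1428 higher and 934 to 1272 lower over all genes, against 1174 and 1117 in the reported fit. The member counts of these other fits therefore do not describe the members against all genes.

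**Figure D3:**
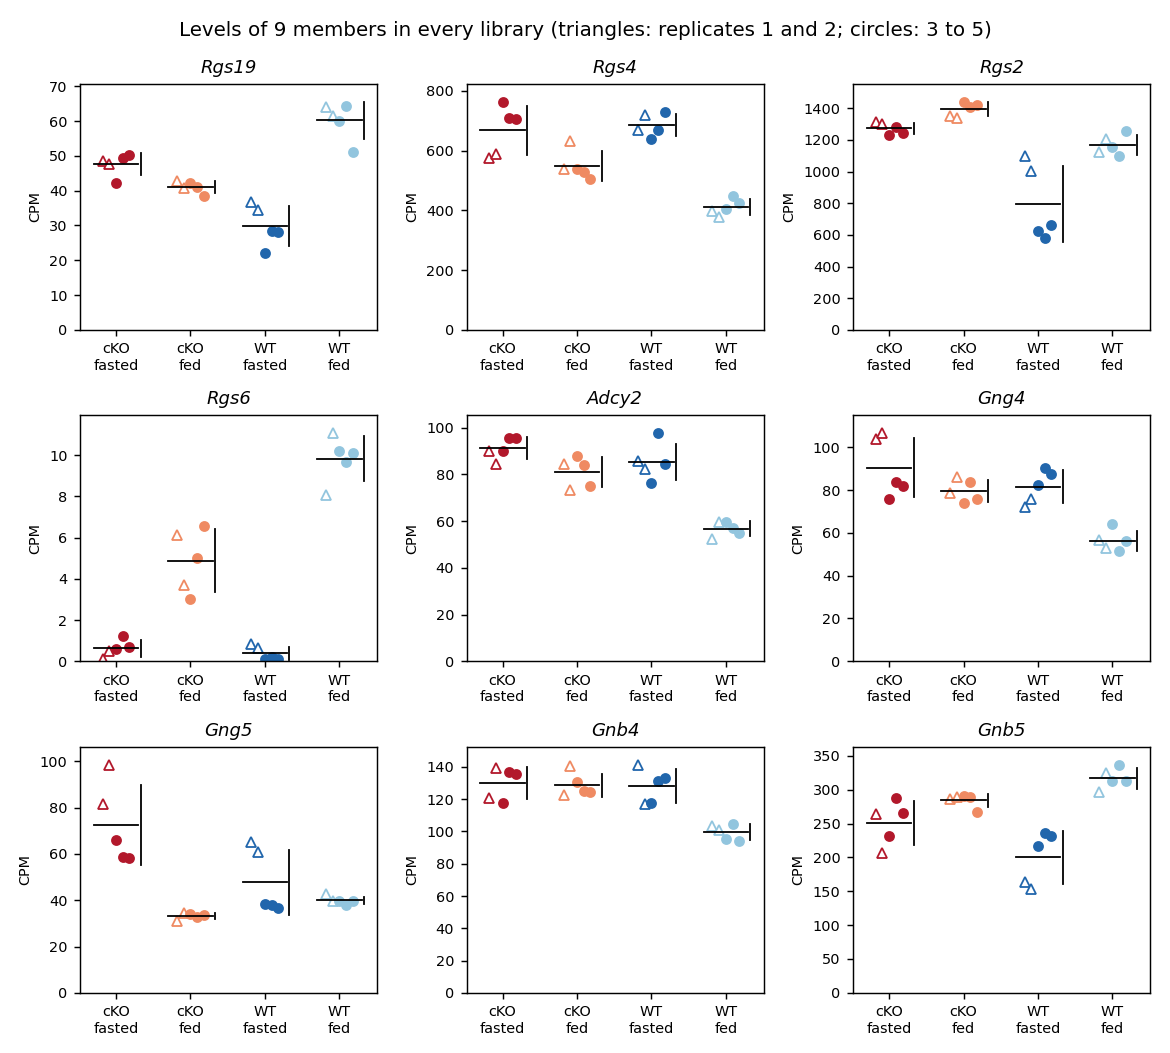
CPM of 9 members in each of 20 libraries, with fasted cKO, fed cKO, fasted WT and fed WT from left to right. Triangles are replicates 1 and 2, circles replicates 3 to 5, horizontal lines group means and vertical lines the SD (n = 5). Rgs19 is lowest in fasted WT and highest in fed WT, while Rgs4, Adcy2, Gng4 and Gnb4 are lowest in fed WT.

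Rgs19 (GAIP, an RZ-family protein that acts on Gi-type subunits; chromosome 2: 181688419 to 181693977, minus strand, GRCm38) had the smallest interaction p of the members. It had 48.5, 47.7, 42.2, 49.4 and 50.3 CPM in fasted cKO, against 42.9, 40.7, 42.1, 41.1 and 38.6 in fed cKO. Fasted WT libraries had 36.7, 34.4, 22.0, 28.5 and 28.1 CPM, against 64.1, 61.4, 60.1, 64.3 and 51.2 in fed WT libraries. Fasted WT lay wholly below fed WT, whereas the groups overlapped in cKO, and both cKO groups lay between the WT groups. The fasting change was 0.21 ± 0.10 in cKO (edgeR adjusted p = 0.0702) and -1.01 ± 0.10 in WT (edgeR adjusted p = 1.1e-09), and they differed by 1.22 ± 0.14 (edgeR adjusted p = 8.4e-07). The difference was 1.01 ± 0.14 with fasted replicates 1 and 2 and 1.40 ± 0.13 with replicates 3 to 5.

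Rgs6 (chromosome 12: 82588292 to 83162056, plus strand, GRCm38) also differed, by 1.79 ± 0.60 (edgeR adjusted p = 0.0393), its log2 fold change being -2.90 ± 0.37 in cKO and -4.69 ± 0.39 in WT. This rested on replicates 3 to 5 of the fasted libraries, where it was 3.46 ± 0.69, while with replicates 1 and 2 it was -0.17 ± 0.73 (edgeR adjusted p = 0.000239 and 0.906). The counts behind it were the 27 and 16 reads given above. Leaving out 1 library at a time gave 1.39 to 2.29. The call was lost without replicate 4 or 5 of fasted cKO, 2 or 3 of fed cKO, 3, 4 or 5 of fasted WT, or 2, 3, 4 or 5 of fed WT (edgeR adjusted p between 0.052 and 0.143).

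Gng5, a widely expressed gamma subunit (chromosome 3: 146499807 to 146505572, plus strand, GRCm38), had 81.8, 98.5, 66.2, 58.7 and 58.4 CPM in fasted cKO, against 30.9, 34.3, 34.0, 32.7 and 33.5 in fed cKO. In WT it had 65.2, 60.8, 38.5, 37.7 and 36.5 CPM in fasted libraries, against 42.5, 39.8, 39.6, 37.9 and 39.7 in fed libraries. All fasted cKO libraries were above fed cKO, and in WT only replicates 1 and 2 stood above the fed group. The fasting change was 1.13 ± 0.14 in cKO (edgeR adjusted p = 1.41e-07) and 0.25 ± 0.14 in WT (edgeR adjusted p = 0.124), and they differed by 0.88 ± 0.20 (edgeR adjusted p = 0.00291). The WT change was 0.64 ± 0.09 with replicates 1 and 2 and -0.08 ± 0.08 with replicates 3 to 5, and the interaction was 0.80 ± 0.13 and 0.97 ± 0.12 with the same sets.

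Gnb5 (chromosome 9: 75306288 to 75345876, plus strand, GRCm38), the obligate partner of the R7 proteins, had 264, 206, 231, 288 and 265 CPM in fasted cKO, against 286, 289, 291, 289 and 267 in fed cKO. Fasted WT libraries had 163, 153, 217, 236 and 232 CPM, against 296, 324, 313, 337 and 313 in fed WT libraries. The WT groups did not overlap and the cKO groups did. The fasting change was -0.18 ± 0.09 in cKO (edgeR adjusted p = 0.104) and -0.66 ± 0.09 in WT (edgeR adjusted p = 7.84e-07), and they differed by 0.48 ± 0.13 (edgeR adjusted p = 0.0125). The difference was 0.74 ± 0.09 with fasted replicates 1 and 2 and 0.35 ± 0.08 with replicates 3 to 5 (edgeR adjusted p = 5.36e-07 and 0.000862).

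The members with a smaller rise in cKO are a beta-gamma-stimulated cyclase, a beta subunit and an R4-family RGS protein. Rgs4, which acts on Gi and Gq subunits (chromosome 1: 169741477 to 169747642, minus strand, GRCm38), had 576, 588, 763, 708 and 707 CPM in fasted cKO, against 539.8, 631, 538, 528 and 504 in fed cKO. In WT it had 669, 718, 640.1, 669 and 728 CPM in fasted libraries, against 396, 377, 405, 447 and 424 in fed libraries. Only the WT groups were fully apart. The fasting change was 0.29 ± 0.07 in cKO (edgeR adjusted p = 0.00122) and 0.74 ± 0.07 in WT (edgeR adjusted p = 6.45e-10), and the difference was -0.45 ± 0.10 (edgeR adjusted p = 0.00213). The cKO rise was 0.09 ± 0.06 with replicates 1 and 2 as the only fasted libraries and 0.13 ± 0.06 with GC content and gene length modelled (edgeR adjusted p = 0.248 and 0.0815).

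Adcy2 (chromosome 13: 68620043 to 68999541, minus strand, GRCm38) had 90.02, 84.5, 89.8, 95.6 and 95.7 CPM in fasted cKO, against 84.2, 73.3, 87.9, 84.0 and 74.8 in fed cKO. Fasted WT libraries had 85.6, 82.3, 76.1, 97.5 and 84.6 CPM, against 52.3, 59.7, 59.7, 56.9 and 54.8 in fed WT libraries. All fed WT libraries lay below all libraries of the other groups, and the cKO groups overlapped. The fasting change was 0.17 ± 0.07 in cKO (edgeR adjusted p = 0.0421) and 0.59 ± 0.07 in WT (edgeR adjusted p = 5.73e-08), and they differed by -0.42 ± 0.10 (edgeR adjusted p = 0.00486). The cKO rise was not called without any 1 of 5 libraries, replicate 3, 4 or 5 of fasted cKO or replicate 2 or 5 of fed cKO (edgeR adjusted p between 0.0544 and 0.124). It was 0.11 ± 0.08 with replicates 1 and 2 as the only fasted libraries (edgeR adjusted p = 0.26).

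Gnb4 (chromosome 3: 32580332 to 32616585, minus strand, GRCm38) averaged 130 CPM in fasted cKO, 129 in fed cKO, 128 in fasted WT and 99.8 in fed WT. All fed WT libraries (93.9 to 105 CPM) lay below all others (117 to 141 CPM). The fasting change was 0.02 ± 0.07 in cKO and 0.36 ± 0.07 in WT (edgeR adjusted p = 0.862 and 3.22e-05), a difference of -0.34 ± 0.09 (edgeR adjusted p = 0.0104). Gng4, a gamma subunit of the nervous system, had a similar set of levels but missed the threshold for the interaction (-0.35 ± 0.12, edgeR adjusted p = 0.0512). Its interaction was 0.03 ± 0.12 with fasted replicates 1 and 2 and -0.60 ± 0.10 with replicates 3 to 5 (edgeR adjusted p = 0.901 and 3.24e-05).

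In fed mice, 6 of the 46 members were higher and 2 lower in cKO than in WT, or 17.4%, against 9.68% of all tested genes (5.87% higher and 3.81% lower). In a fit of the fed groups alone, 7 members were higher and 7 lower, 15.2% each, against 11.7% higher and 11.1% lower of all genes tested there. The 6 were Adcy2, Gng4, Rgs7bp, Rgs4, Gnb4 and Gnai1, and the 2 were Rgs6 and Rgs19. This comparison and the fasting comparison in WT share the fed WT libraries, so their values are set side by side here and give no independent evidence of each other. Rgs4 was higher by 0.42 ± 0.07 in fed cKO and by 0.74 ± 0.07 in fasted WT, both against fed WT, and Adcy2 by 0.51 ± 0.07 and 0.59 ± 0.07 in the same comparisons. Gng4 was higher by 0.50 ± 0.09 in fed cKO (edgeR adjusted p = 0.000289) and by 0.54 ± 0.09 in fasted WT (edgeR adjusted p = 7.61e-06), and Gnb4 by 0.37 ± 0.07 and 0.36 ± 0.07 (edgeR adjusted p = 0.000357 in fed cKO). The edgeR adjusted p in fed cKO was 0.000167 for Rgs4 and 1.14e-05 for Adcy2. Rgs19 was lower in fed cKO than in fed WT (-0.55 ± 0.10, edgeR adjusted p = 0.000242), and so was Rgs6 (-1.01 ± 0.27, edgeR adjusted p = 0.0141). No library overlapped between fed cKO and fed WT for any of the called members. They were picked by the test, and the share of all genes without overlap was not counted, so this adds no separate support. Without replicate 3 of fed cKO the Rgs6 change was -0.88 ± 0.28 and missed the threshold (edgeR adjusted p = 0.0504). Rgs7bp went against the fasting direction: it averaged 19.9 CPM in fed cKO and 14.3 in fed WT (0.48 ± 0.14, edgeR adjusted p = 0.0263). Leaving out replicate 2 or 5 of fed cKO or replicate 1, 2 or 5 of fed WT ended that call (edgeR adjusted p between 0.0562 and 0.0786). Gnai1 was higher by 0.22 ± 0.07 (edgeR adjusted p = 0.0335), and leaving out replicate 1, 4 or 5 of fed cKO or 1, 2, 3 or 4 of fed WT ended the call (edgeR adjusted p between 0.0577 and 0.105).

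**Figure D4:**
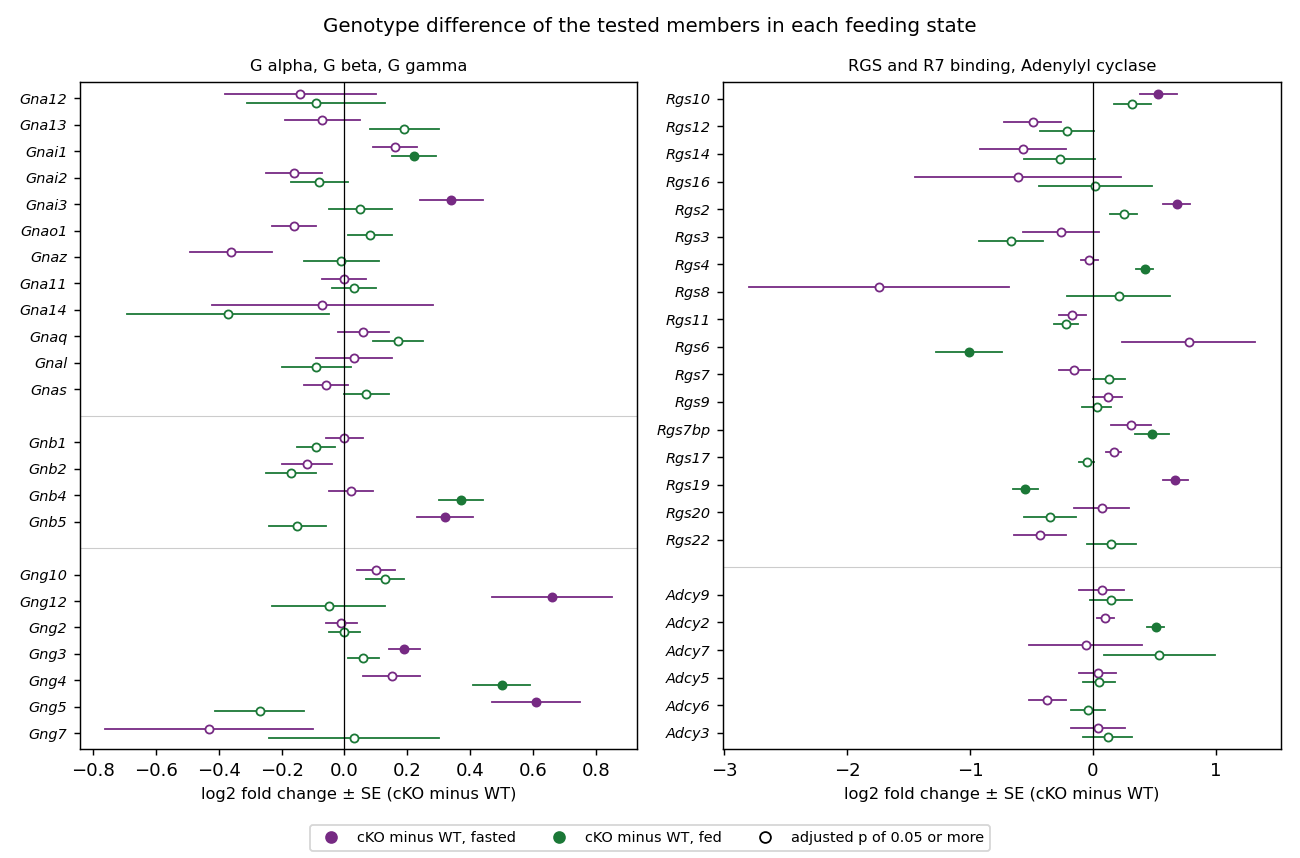
Log2 fold change ± SE of the 46 tested members, cKO minus WT, in fasted (purple, upper point of each pair) and fed (green, lower point) mice. Filled points passed an adjusted p under 0.05 and open points did not. Rgs19 is the member called in both states, below 0 when fed and above 0 when fasted.

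In fasted mice, 8 members were higher in cKO than in WT and none passed the test as lower, or 17.4%, against 20.3% of all tested genes (11.5% higher and 8.84% lower). Of the members with a negative change, Gnaz came nearest to the threshold (log2 fold change -0.36, edgeR adjusted p = 0.0567), and DESeq2 called 1 member lower. In a fit of the fasted groups alone, 4 members were higher and 0 lower, or 9.30% higher, against 5.93% higher and 5.04% lower of all genes tested there. With replicates 3 to 5 as the only fasted libraries 6 members were lower, Gnai2, Gnao1, Gnaz, Gnas, Rgs7 and Adcy6, by 0.17 to 0.52 on the log2 scale (edgeR adjusted p between 0.000113 and 0.0313). The share of all genes is not set beside this count of 6. The count therefore does not describe the members against all genes. The 8 were Rgs2, Rgs19, Gng12, Gng5, Rgs10, Gnai3, Gnb5 and Gng3. Rgs2, which acts mainly on Gq and also on Gs signalling (chromosome 1: 143999338 to 144004161, minus strand, GRCm38), had 1312, 1303, 1234, 1281 and 1243 CPM in fasted cKO. It had 1352, 1341, 1441, 1410 and 1424 CPM in fed cKO. In WT it had 1101, 1003, 626, 583 and 662.5 CPM in fasted libraries, against 1124, 1204, 1158, 1099 and 1257 in fed libraries. Replicates 1 and 2 of fasted WT were near fed WT, and replicates 3 to 5 were far below every other library. Fasted cKO was 0.68 ± 0.11 above fasted WT on the log2 scale (edgeR adjusted p = 8.95e-05). Within the sets this was 0.33 ± 0.06 with replicates 1 and 2 and 1.00 ± 0.05 with replicates 3 to 5 (edgeR adjusted p = 0.000158 and 1.15e-17). Within WT, Rgs2 was lower in fasted than in fed libraries (-0.56 ± 0.11, edgeR adjusted p = 8.66e-05), or -0.17 ± 0.05 with replicates 1 and 2 and -0.90 ± 0.04 with replicates 3 to 5. In cKO its fasting change was -0.13 ± 0.11 (edgeR adjusted p = 0.337). The interaction of Rgs2 was 0.43 ± 0.16 (edgeR adjusted p = 0.0577), or 0.08 ± 0.07 and 0.75 ± 0.06 within the sets (edgeR adjusted p = 0.468 and 5.23e-12).

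Rgs19 was 0.67 ± 0.10 higher in fasted cKO than in fasted WT (edgeR adjusted p = 4.26e-05), and Gng5 0.61 ± 0.14 (edgeR adjusted p = 0.00309). Gnb5 was 0.32 ± 0.09 higher (edgeR adjusted p = 0.0161) and lost the call without replicate 4 of fasted cKO (0.27 ± 0.10, edgeR adjusted p = 0.0551). Gng12, a gamma subunit that is not restricted to neurons, averaged 11.8 CPM in fasted cKO and 7.54 in fasted WT (0.66 ± 0.19, edgeR adjusted p = 0.0137). Rgs10 averaged 13.8 CPM in fasted cKO and 9.54 in fasted WT (0.53 ± 0.15, edgeR adjusted p = 0.0144). With replicates 1 and 2 as the only fasted libraries both fell short of the threshold (0.28 ± 0.23 for Gng12 and 0.18 ± 0.22 for Rgs10, edgeR adjusted p = 0.452 and 0.644). So did Gng12 without replicate 3 of fasted WT and Rgs10 without replicate 5 of fasted WT (edgeR adjusted p = 0.0518 and 0.0527). Gnai3 was 0.34 ± 0.10 higher (edgeR adjusted p = 0.0154), or 0.25 ± 0.10 with GC content and gene length modelled (edgeR adjusted p = 0.0784) and 0.38 ± 0.15 with replicates 1 and 2 as the only fasted libraries (edgeR adjusted p = 0.102). Gng3 was 0.19 ± 0.05 higher (edgeR adjusted p = 0.00567). In the fit of the fasted groups alone the calls of Gng3, Gnb5, Gng12 and Rgs10 were lost (edgeR adjusted p = 0.0661, 0.101, 0.0779 and 0.078). Summed Pomc neuron markers moved with this comparison, at 440 to 1100 CPM in fasted cKO, 314 to 419 in fed cKO, 380 to 470 in fasted WT and 325 to 433 in fed WT, with none of the 3 at 0. The fasted cKO sums were 440 and 533 CPM in replicates 1 and 2 and 825 to 1100 in replicates 3 to 5. The part of these markers in the comparison was not tested.

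Cyclic AMP acts on transcription through the response element TGACGTCA (CRE) and its TGACG core. Rgs2, Rgs4, Rgs6, Rgs7bp, Rgs10 and Rgs19 are RGS genes with a genotype difference in the fed or the fasted state. The promoter sequences of Rgs2, Rgs4 and Rgs19 are shown as examples. Each is 300 bases from 250 before to 50 after the start, on the minus strand, read 5′ to 3′ from RefSeq (GRCm38.p6), with TGACG or its complement CGTCA in capitals. The windows are chr1:144004100-144004399 for Rgs2, chr1:169747593-169747892 for Rgs4 and chr2:181693928-181694227 for Rgs19, the last of them the Rgs19 window at the annotated 5′ end of the gene.
Rgs2: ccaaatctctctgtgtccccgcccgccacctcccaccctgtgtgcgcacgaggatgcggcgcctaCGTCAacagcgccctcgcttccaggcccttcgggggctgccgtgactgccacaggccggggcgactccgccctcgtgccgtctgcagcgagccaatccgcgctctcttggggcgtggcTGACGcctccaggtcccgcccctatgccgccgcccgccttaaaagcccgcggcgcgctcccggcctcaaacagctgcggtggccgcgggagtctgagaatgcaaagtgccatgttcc
Rgs4: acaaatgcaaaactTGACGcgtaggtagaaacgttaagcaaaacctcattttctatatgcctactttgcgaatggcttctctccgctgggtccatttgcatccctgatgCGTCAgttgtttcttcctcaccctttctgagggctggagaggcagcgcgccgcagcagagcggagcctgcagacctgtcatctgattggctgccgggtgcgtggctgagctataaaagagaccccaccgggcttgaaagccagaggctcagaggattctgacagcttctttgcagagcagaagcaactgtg
Rgs19: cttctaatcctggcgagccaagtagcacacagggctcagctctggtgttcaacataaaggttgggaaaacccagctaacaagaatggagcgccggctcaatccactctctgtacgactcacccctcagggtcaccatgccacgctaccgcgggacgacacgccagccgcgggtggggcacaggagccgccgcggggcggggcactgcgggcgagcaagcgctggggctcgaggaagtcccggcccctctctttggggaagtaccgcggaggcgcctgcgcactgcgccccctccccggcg
Rgs2 and Rgs4 held 2 cores each and the Rgs19 window held 0. The windows of Rgs6, Rgs7bp and Rgs10, not shown, held 0, 1 and 0 cores. RefSeq gave 62 such windows for 46 of the 60 members. The 8-base CRE occurred in 0 of these 62, and in 1.79% of all 32851 promoter windows of this length. The core occurred in 25.8% of the 62 and 20.8% of all, and the AP-1 motif TGANTCA in 8.06% of the 62 and 7.81% of all, on either strand. Cores inside a full CRE count for both motifs, and a match describes the letters of the window only.

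Genes of the wider pathway, 105 in 10 lists of which 88 were tested, were described in the same way. With fasting, 18 rose and 30 fell in cKO, or 54.5%, and 23 rose and 34 fell in WT, or 64.8%, near the 53.1% and 60.9% of all tested genes. Between genotypes, 7 were higher and 3 lower in fed cKO, or 11.4%, against 9.68% of all genes. In fasted cKO 9 were higher and 10 lower, or 21.6%, against 20.3%. The interaction was past the threshold for 19, 9 more positive and 10 more negative, or 21.6%, against 17.3%. Single lists hold 4 to 15 tested genes and are given as counts, with no test. Among the protein kinase A genes, 2 of 9 rose and 4 fell with fasting in cKO and 4 rose and 4 fell in WT. Prkar2b, the regulatory subunit RII-beta, averaged 121 CPM in fasted cKO and 229.8 in fed cKO (-0.93 ± 0.12, edgeR adjusted p = 1.31e-07), and 78.9 in fasted WT and 278 in fed WT (-1.82 ± 0.12, edgeR adjusted p = 3.14e-13). The difference was 0.89 ± 0.17 (edgeR adjusted p = 0.00042). In fasted cKO, Prkar2b had 92.15 and 82.97 CPM in replicates 1 and 2, within the fasted WT range of 63.78 to 93.75. Replicates 3 to 5 of fasted cKO lay above that range, at 147.6, 146.9 and 133.2 CPM. The Prkar2b difference with either set alone is not given here. Of the kinase inhibitors, Pkia fell and Pkib rose in both genotypes (-0.79 ± 0.09 and 0.88 ± 0.13 in cKO, -1.11 ± 0.09 and 1.17 ± 0.13 in WT). The catalytic subunit Prkacb was higher in fed cKO than in fed WT (0.23 ± 0.06, edgeR adjusted p = 0.0149) and lower in fasted cKO than in fasted WT (-0.29 ± 0.06, edgeR adjusted p = 0.00157), an interaction of -0.52 ± 0.09.

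**Figure D5:**
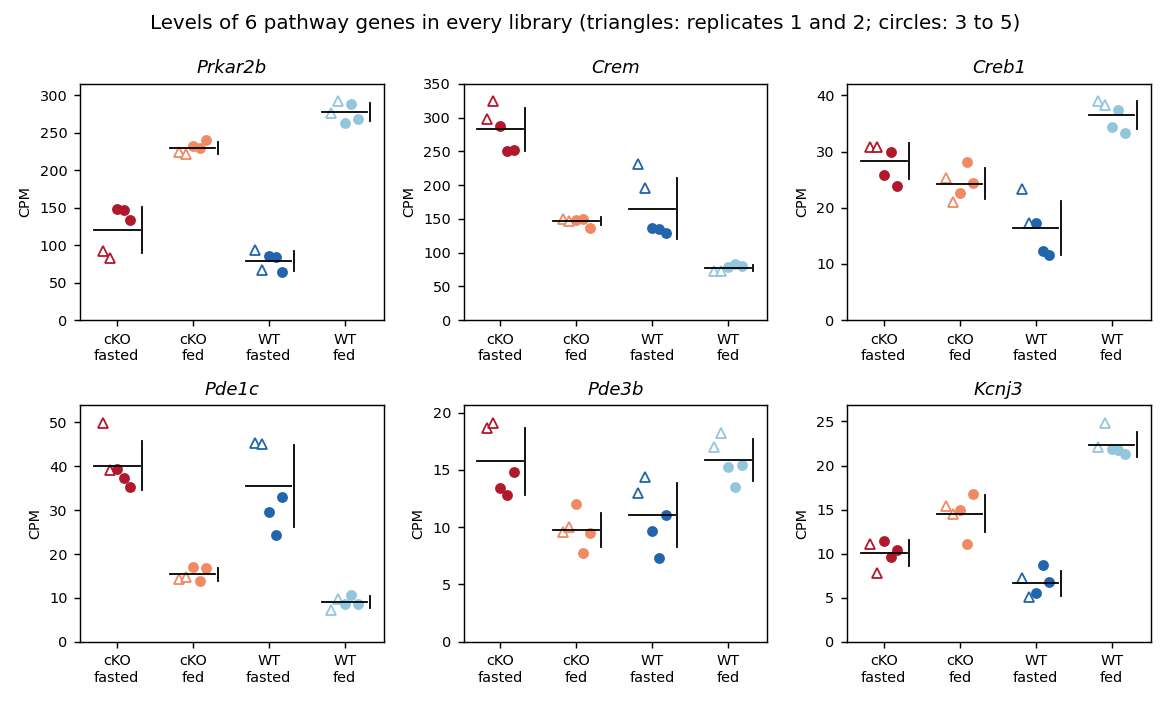
CPM of 6 genes of the cyclic AMP and GIRK pathway in each of 20 libraries, with fasted cKO, fed cKO, fasted WT and fed WT from left to right. Triangles are replicates 1 and 2, circles replicates 3 to 5, horizontal lines group means and vertical lines the SD (n = 5). Creb1 and Kcnj3 are lowest in fasted WT and highest in fed WT, and Crem is lowest in fed WT.

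Among the CREB factors, 2 of 8 rose and 2 fell with fasting in cKO and 2 rose and 3 fell in WT. Creb1, the main cyclic AMP-responsive activator, had 30.9, 30.9, 25.8, 29.96 and 23.9 CPM in fasted cKO, against 25.3, 21, 22.6, 28.1 and 24.4 in fed cKO. Fasted WT libraries had 23.4, 17.3, 17.4, 12.3 and 11.6 CPM, against 38.9, 38.3, 34.4, 37.5 and 33.3 in fed WT libraries. As for Rgs19, the cKO groups overlapped and lay largely between the WT groups, and the interaction was 1.38 ± 0.19 (edgeR adjusted p = 1.17e-05). Crem, whose short form ICER is a cyclic AMP-induced repressor, averaged 282 CPM in fasted cKO, 146 in fed cKO, 165 in fasted WT and 77.4 in fed WT. It rose with fasting by 0.95 ± 0.11 in cKO and 1.09 ± 0.11 in WT, and was higher in cKO by 0.92 ± 0.11 when fed and 0.77 ± 0.11 when fasted (edgeR adjusted p between 3.2e-09 and 2.41e-05).

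Phosphodiesterases, which break down cyclic AMP, moved in both directions: 5 of 15 rose and 5 fell in cKO, and 4 rose and 5 fell in WT. Pde1c averaged 40.2 CPM in fasted cKO and 15.4 in fed cKO, and 35.5 in fasted WT and 9.03 in fed WT (1.38 ± 0.14 and 1.97 ± 0.15, edgeR adjusted p = 4.98e-09 in cKO and 6.09e-12 in WT). Pde3b, which insulin signalling activates, rose with fasting in cKO (0.68 ± 0.16, edgeR adjusted p = 0.000741) and fell in WT (-0.53 ± 0.16, edgeR adjusted p = 0.00593), a difference of 1.21 ± 0.23 (edgeR adjusted p = 0.000459). In fasted WT it had 12.97 and 14.34 CPM in replicates 1 and 2 and 7.32 to 11.03 in replicates 3 to 5. Fed WT had 13.47 to 18.23 CPM. In fasted cKO it had 18.63 and 19.1 CPM in replicates 1 and 2 and 12.82 to 14.8 in replicates 3 to 5. Fed cKO had 7.755 to 11.98 CPM. The Pde3b changes with either set alone are not given here. Among the GIRK channels, which beta-gamma subunits open, Kcnj3 averaged 10.1 CPM in fasted cKO and 14.5 in fed cKO, and 6.64 in fasted WT and 22.4 in fed WT. Its fall was -0.53 ± 0.14 in cKO and -1.75 ± 0.15 in WT (edgeR adjusted p = 0.00263 and 3.76e-11), and the interaction was 1.22 ± 0.20 (edgeR adjusted p = 0.000121). Of the 7 tested receptor kinases and arrestins, 2 rose and 2 fell in cKO and 2 rose and 3 fell in WT. Arrb1, which uncouples receptors from G proteins, rose by 1.39 ± 0.20 in cKO and 1.44 ± 0.20 in WT. The receptor kinase Adrbk1 fell by 0.52 ± 0.12 in cKO and by 0.68 ± 0.12 in WT, and Grk6 fell by 0.28 ± 0.10 in cKO and by 0.52 ± 0.10 in WT. The receptor kinase Adrbk2 went the other way, rising by 0.31 ± 0.10 in cKO and by 0.85 ± 0.10 in WT (edgeR adjusted p = 0.0137 and 6.24e-08). Its interaction was -0.54 ± 0.15 (edgeR adjusted p = 0.0102). Nucb2, the precursor of nesfatin-1 and a protein that binds Gi subunits, rose by 1.42 ± 0.08 in cKO and 1.65 ± 0.08 in WT (edgeR adjusted p = 2.21e-14 and 3.47e-16).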

How the data were processed

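The data were RNA counts of 20 libraries of sorted tdTomato+ AgRP neurons, made with SMART-seq v4 after 15 cycles of cDNA amplification and with Nextera XT, per the labels' protocols. Neither kit marks strand. The authors deposited raw counts per gene. Per the submitters' processing notes the tools were Trimmomatic 0.36, HISAT2 2.1.0, featureCounts of Subread 1.6.2 and DESeq2 1.20.0, with GRCm38 (mm10). No source used here names the annotation, the strand setting or the treatment of shared reads, so exon overlaps of more than 10% are stated beside the genes concerned. The deposited normalized table was not used.

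Tests on the counts used edgeR 4.0.16 (R 4.3.3), with TMM normalization, filterByExpr with a minimum count of 10 and a minimum total of 15, which left 13237 genes, and the quasi-likelihood test on 4 group means fitted to all 20 libraries, with Benjamini-Hochberg adjustment over all tested genes in each of 5 comparisons. Log2 fold changes are given with SE, and levels as CPM with SD where stated. Depth ran from 8494499 to 13573524 counts per library. Intervals and floors cover counting error only: the reads were amplified and carry no molecular identifiers. No pair of libraries of a group agreed within sampling noise (chi-square per degree of freedom of at least 3.36). Gene positions, lengths and overlaps are from GENCODE M21 on GRCm38, to which all 60 members matched, and promoter windows from RefSeq (GRCm38.p6).

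The members, the gene lists and the markers were chosen with earlier results of these data known. Members given with a value in every library came from a rule: per comparison, the called members whose mean log2 CPM was 2 or more, up to 6 of the largest changes in each direction, or the 6 smallest p for the interaction. Other members are given by means or ranges. Alternatives were DESeq2 1.42.0 as the test, its size factors in edgeR, upper-quartile normalization, all genes left unfiltered, genes kept at 1 CPM in 5 libraries, robust dispersion, a replicate block, fits of only the groups compared, offsets for GC content and length (mgcv 1.9.3), either set of fasted replicates alone, and leaving out each library in turn. Counts without genes that passed the filter through 1 feeding state were added after seeing the data. The fits were tested on simulated data before use.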

Additional observations from a re-analysis of the deposited data

Results flagged for a closer look

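In 88 groups of 5 libraries (22 members named by rule in 4 groups), 3 held a library far from the others, and chance gives about 1 in 20. Rgs4 was 631 CPM in replicate 2 of fed cKO, against 504 to 540 in the others. Rgs22 was 10.3 CPM in replicate 3 of fasted WT, against 5.73 to 6.98. Gnb5 was 267 CPM in replicate 5 of fed cKO, against 286 to 291.

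The fasting response differed between the genotypes in edgeR's interaction test for 7 members. As cKO minus WT on the log2 scale, the difference was 1.22 for Rgs19, 1.79 for Rgs6, 0.88 for Gng5, 0.48 for Gnb5, -0.45 for Rgs4, -0.42 for Adcy2 and -0.34 for Gnb4.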

How the results depend on the processing

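Of 78 calls of a member in a comparison, 51 held under every alternative, including each library left out, and 2 turned round: Gng10 in fasted WT with GC and length offsets (-0.02) and the Rgs6 interaction with fasted replicates 1 and 2 only (-0.17). The cause was not tested. Counts of members moved as follows. Members lower in fed cKO numbered 7 in the fit of only the groups compared, and members higher in fasted cKO numbered 4 there. Members lower in fasted cKO, 0 in the reported fit, numbered 1 with DESeq2, 2 with upper-quartile normalization, 1 with no filter, 1 with the replicate block, 3 with fasted replicates 1 and 2 and 6 with replicates 3 to 5. The interaction called 7 higher with replicates 3 to 5, and lower 5 with upper-quartile normalization, 5 with replicates 1 and 2 and 9 with replicates 3 to 5. Leaving out 1 library gave 7 to 11 higher and 17 to 18 lower with fasting in cKO, 8 to 14 and 18 to 20 with fasting in WT, 4 to 6 and 1 to 2 in fed cKO (1 without replicate 3 of fed cKO), 7 to 9 and 0 to 3 in fasted cKO (3 without replicate 2 of fasted WT, and 1 without replicate 2 or 5 of fasted cKO or replicate 1 or 5 of fasted WT), and 3 to 7 and 3 to 5 for the interaction. In the fit of only the groups compared, all genes called were 1518 higher and 1434 lower in fed cKO and 731 and 621 in fasted cKO, against 777, 504, 1517 and 1170. With fasted replicates 1 and 2, 668 genes were lower in fasted cKO. With replicates 3 to 5 the interaction called 1810 and 1793 genes, against 1174 and 1117. Without replicate 2 of fed cKO, 332 genes were lower in fed cKO.

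The labels number replicates 1 to 5 in each group, but correlations of same-numbered libraries ran from -0.045 to 0.13 and did not pair them, and 2 to 4 of 10 libraries correlated best with their own number. With the replicate block the calls were 9 higher and 19 lower with fasting in cKO, 9 and 20 in WT, 6 and 2 in fed cKO, 8 and 1 in fasted cKO, and 6 and 3 for the interaction. Depth limits the members near the filter, above all Rgs6, Rgs8 and Rgs16 in fasted libraries.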

Other observations

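Of the members below the filter, Adcy10, the soluble cyclase that bicarbonate activates, was at 0.227 to 1.26 CPM in fasted cKO, 0 to 0.0873 in fed cKO, 0.662 to 1.52 in fasted WT and 0 to 0.345 in fed WT. It was picked out after its values were seen and was not tested. Adcy1 and Adcy8, cyclases that calcium and calmodulin stimulate, were at most 1.86 and 1.42 CPM in any library. Gng8 was at most 1.31, Gng11 1.85 and Rgs5 2.03 CPM. Gna15 and Adcy4 had counts in 1 library each.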
